A study of Mus musculus with 8 samples.

Results

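The response of wild-type mouse skin fibroblasts to low oxygen was described here over 1475 small RNA features of 2403 listed in the table. A feature was taken when its normalized read count reached at least 10 in at least 2 of the 4 wild-type libraries. The cells were immortalized fibroblasts derived from the skin of wild-type C57BL/6 mice (WT). They were cultured for 24 h in hypoxia (1% O2) or in normoxia (21% O2), with 2 libraries in each condition, numbered 1 and 2. The same series holds 4 libraries of fibroblasts from C57BL/6 mice with the mir210lox/lox genotype, titled KO, treated in the same way. These served here for the estimate of the spread and for a comparison of the WT change with the change in cells that hold almost no miR-210. No recombinase, clone number or pooling of mice is named in the labels, and separate cultures behind the 2 libraries of a condition are not stated there, so each p-value rests on a spread between libraries that may be only technical.

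Cells that run short of oxygen stabilise hypoxia-inducible factor, a transcription factor that switches on genes for glycolysis, iron and oxygen delivery. Among microRNAs, short RNAs that pair with messenger RNAs through their seed and lower their output, miR-210 is the best known direct target of this factor. It is known to restrain mitochondrial respiration, for instance through the iron-sulfur cluster scaffold protein ISCU. Libraries of small RNA also hold pieces of transfer RNAs, small nucleolar RNAs (guides of ribosomal RNA modification), small nuclear RNAs (spliceosome and related particles) and ribosomal RNA.

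The sequences that carry the comparison come from the miR-210 hairpin and from the transfer RNAs for asparagine and phenylalanine. The mature arms are given from RefSeq with the seed (bases 2 to 8) in capitals, and the Mir210 hairpin (RefSeq, GRCm38.p6, chr7:141221384-141221493, minus strand) with both arms in capitals. The 3p arm lies at chr7:141221407-141221428 and the 5p arm at chr7:141221445-141221466. The positions and the sequence of the hairpin are those of RefSeq, since the sources used here do not name the build of the table.
miR-210-3p: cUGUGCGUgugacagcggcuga
miR-210-5p: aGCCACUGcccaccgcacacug
Mir210 hairpin: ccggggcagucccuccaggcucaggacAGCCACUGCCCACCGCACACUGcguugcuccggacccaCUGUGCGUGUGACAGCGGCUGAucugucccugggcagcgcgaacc
The transfer RNA genes are given as the table prints them, with 1 base of flank at each end and the anticodon in capitals. A pair of asparagine genes, a pair of phenylalanine genes and the gene annotated as serine with anticodon GGA are shown, because their copies all differed between the conditions in one direction.
chr3.tRNA294-AsnGTT: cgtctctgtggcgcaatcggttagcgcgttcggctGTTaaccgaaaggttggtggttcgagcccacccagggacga
chr3.tRNA757-AsnGTT: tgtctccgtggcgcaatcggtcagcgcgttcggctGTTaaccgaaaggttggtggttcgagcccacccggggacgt
chr13.tRNA988-PheGAA: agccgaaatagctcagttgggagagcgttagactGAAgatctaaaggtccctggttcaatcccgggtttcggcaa
chr14.tRNA457-PheGAA: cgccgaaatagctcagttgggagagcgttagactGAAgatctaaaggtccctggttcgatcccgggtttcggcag
chr11.tRNA832-SerGGA: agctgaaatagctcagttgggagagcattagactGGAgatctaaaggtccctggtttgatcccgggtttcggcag
Without its flanks, chr3.tRNA757-AsnGTT differs by 3 edits from chr3.tRNA294-AsnGTT, whose sequence is shared by 9 of the 14 asparagine copies listed. chr14.tRNA457-PheGAA differs by 1 edit from chr13.tRNA988-PheGAA. The gene annotated as SerGGA differs from those phenylalanine genes by 4 and 5 edits.

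Values of the 4 WT libraries summed to between 9807260 and 12167438, so a value of 0 allows a share of up to 3.06e-05% in the smallest of them (3 counts over the total, counting error only). The low values fell on multiples of a fixed step, and the total over that step gave 10402671 to 11081415 reads for 3 of the libraries. In WT normoxia number 1 the step lay anywhere between 0.953 and 1.012, so its number of reads is known only roughly. The members held 99.98% of the WT total, and 1369 of them reached 10 in all 4 libraries. The most abundant 8 members held 50% of the total, and 170 members shared their sequence with another member, which leaves 1360 distinct sequences. The label fibroblast was checked against marker microRNAs. The fibroblast and mesenchymal list took 47.6% to 50.5% of each WT library. This total rested mostly on miR-21-5p, which held 2815901 of the list's 4672327 in normoxia number 1. The miR-143 with miR-145 list took 3.03% to 5.25% and the miR-199 with miR-214 list 2.88% to 6.04%. The epithelial list took at most 0.00215%, the haematopoietic 0.0318%, the endothelial 0.00167%, the muscle 0.00301%, and the neural and melanocyte list 0.017%. No marker of these 5 lists that has an entry in the table was at 0 in all 4 libraries. Markers without an entry were not counted. Among the entries miR-451, an erythroid microRNA, was the highest, with 2281 and 2233 in normoxia and 2986 and 1479 in hypoxia.

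In the comparison of hypoxia with normoxia, both miR-210 arms and the asparagine transfer RNAs were higher in both hypoxia libraries than in either normoxia library, and the phenylalanine transfer RNAs were lower. In a limma fit over 1540 features, 0 passed an adjusted p of 0.05 (0% of those tested), and 20 had an unadjusted p under 0.05. Of these, 17 were higher in hypoxia (1.1% of those tested) and 3 lower (0.195%). All 17 higher features and 2 of the 3 lower ones were members. The 17 were both arms of miR-210, all 13 asparagine transfer RNA members, miR-34a-3p and the small nuclear RNA feature Gm24924, while the 2 lower members were the piRNA entry FR005666 and the hairpin feature of Mir3473c. Gm24924 is a member only through its WT hypoxia values and FR005666 only through its WT normoxia values. The direction of these features therefore follows from the threshold and is not separate support. Both hypoxia libraries lay above both normoxia libraries for 219 members, against 14.4% of all features tested, and below them for 165, against 11.4%. A log2 change above 1 was seen in 23 members, where 27 of all 1540 features tested (1.75%) had one, and a change below -1 in 13 members, against 20 features (1.3%). The median log2 change was 0.02 over the members and 0.02 over all features tested. A change in RNA per cell and a change in the cells that make up a bulk sample cannot be told apart in these libraries.

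**Figure D1:**
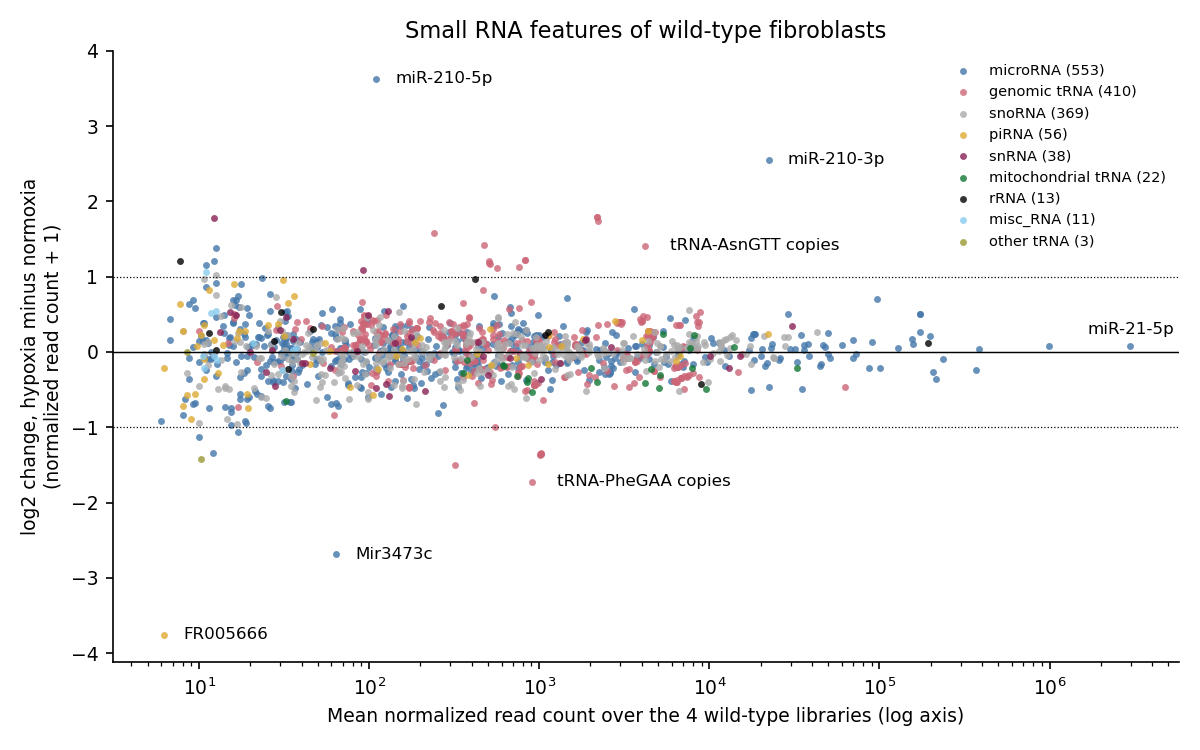
Mean normalized read count of each of the 1475 members over the 4 WT libraries (horizontal, log axis) against its log2 change, hypoxia minus normoxia (vertical), by feature type. Dotted lines mark changes of 1 and -1. Both miR-210 arms (3.63 and 2.55) and the asparagine copies stand above the cloud, and the phenylalanine copies, Mir3473c (-2.69) and FR005666 (-3.75, a fitted value that depends on the pseudocount of 1) stand below it.

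miR-210-3p is the arm that is loaded into silencing complexes as the main guide. Its normalized count was 4786 in normoxia number 1 and 8676 in number 2, against 36738 and 39011 in the pair of hypoxia libraries. The lower hypoxia value lay 4.23-fold above the higher normoxia value. Ranked among the 553 microRNA members, it moved from places 79 and 66 in normoxia to 29 and 35 in hypoxia. The log2 change was 2.55 (SE 0.50), with an adjusted p of 0.332 by limma over all features. miR-210-5p, the arm that is mostly degraded, held 11 and then 21 in the normoxia libraries and 163 and then 246 in hypoxia, places 512 and 476 against 260 and 253. Its log2 change was 3.63 (SE 0.60, adjusted p = 0.235 by limma). With a pseudocount of 8 the adjusted p by limma was 0.00641, with a change of 3.15 (SE 0.34). A larger pseudocount narrows differences among low values, such as the KO values of this arm, so 0.00641 is not separate support. Over features with a mean of at least 50 the adjusted p by limma was 0.0423. That mean was taken over all 8 libraries, and miR-210-5p reached it only through its 2 WT hypoxia values. The value of 0.0423 is therefore not separate support either. The normoxia libraries of these 2 arms themselves differed, with number 2 above number 1 in each. In the KO libraries the 3p arm held 23 and 14 in normoxia against 10 and 32 in hypoxia, and the 5p arm held at most 1 count. The SE and adjusted p of each arm above take in the spread between these low KO values as well as that between the WT libraries.

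The ratio of the 2 arms was lower in hypoxia, a difference that did not pass the adjusted test. The 3p arm outnumbered the 5p arm 399-fold and 394-fold in the normoxia libraries (with 1 added to each arm), and 224-fold and 158-fold in hypoxia. Both hypoxia ratios lay below both normoxia ratios. The log2 ratio differed by -1.08 (SE 0.39, unadjusted p = 0.0243, adjusted p = 0.989 by limma over 165 hairpins). The normoxia ratios rest on 11 and 21 counts of the 5p arm. Of the 165 hairpins with enough of both arms, 75 held more of the 3p and 90 more of the 5p arm, and 0 exchanged their dominant arm between the conditions. None of them passed an adjusted p of 0.05 (0%), and 3 had an unadjusted p under 0.05. The smallest p belonged to miR-540, whose 3p share was higher in hypoxia (log2 ratio change 1.25, SE 0.37, unadjusted p = 0.00859). Its minor 3p arm held only 4 and 10 counts in normoxia against 10 and 11 in hypoxia, while the 5p arm went from 178 and 227 to 117 and 146. miR-495 showed a lower ratio (-0.97), resting on 3 to 14 counts of its 5p arm.

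miR-34a, a microRNA induced by the tumour suppressor p53, had non-overlapping values on its minor arm and overlapping ones on its main arm. miR-34a-3p held 406 and 397 in normoxia against 577 and 789 in hypoxia, a log2 change of 0.75 (SE 0.28, unadjusted p = 0.0237), with no overlap between the conditions. The main arm miR-34a-5p held 11120 and 15384 against 11525 and 13894, with normoxia values on both sides of the hypoxia values. The log2 arm ratio changed by 0.80 (SE 0.41, unadjusted p = 0.0828). miR-15b had the same layout, with its minor arm miR-15b-3p at 4395 and 5564 in normoxia against 6325 and 7237 in hypoxia (0.45, SE 0.26), and miR-15b-5p at 13687 and 12716 against 10353 and 12993, which overlap. The arms of miR-34a are as follows, seeds in capitals.
miR-34a-3p: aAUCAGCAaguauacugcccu
miR-34a-5p: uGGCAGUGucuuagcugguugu
The 6 members of the miR-34 list had a median log2 change of 0.06, and 1 of 6 had an unadjusted p under 0.05.

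The other microRNAs differed little between the conditions. Of 553 microRNA members 283 were higher and 270 lower, with a median log2 change of 0.01. Non-overlapping groups were found for 45 higher (8.14%) and 48 lower members (8.68%), both below the shares over all features tested. miR-21-5p, a microRNA of growth and fibrosis and the most abundant member, held 2815901 and 2991957 in normoxia against 2908184 and 3246233 in hypoxia (log2 change 0.08, SE 0.28). miR-22-3p held 781539 and 1172508 against 953493 and 1081091 (0.08, SE 0.42), and miR-125b-5p 359840 and 395878 against 348412 and 433726 (0.04, SE 0.27). In all of these the ranges of the 2 conditions overlapped. The 10 seed families with the most reads held 76.3% of the microRNA total, and their log2 changes ran from -0.38 (miR-19a-3p with miR-19b-3p) to 0.50 (miR-199a-3p with miR-199b-3p). The mature sequences of those 2 miR-199 members are identical, so their values are not separate measurements.
miR-19b-3p: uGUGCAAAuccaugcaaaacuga
miR-199a-3p: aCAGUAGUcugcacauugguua
miR-199b-3p: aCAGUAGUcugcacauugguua
Of 450 seed families 0 passed an adjusted p of 0.05 (0%) and 3 had an unadjusted p under 0.05. Those were the families of both miR-210 arms, each of which has its seed to itself, and AACAUGG, the seed of miR-218-1-3p, which at 10 and 7 against 4 and 1 was too low to be a member.

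MicroRNAs other than miR-210 that have been described as responding to low oxygen in cultured cells made up a list of 49 members. 22 of them were higher and 27 lower, 0 had an unadjusted p under 0.05, and the median log2 change was -0.03. Their largest members, miR-125b-5p, miR-24-3p, miR-23b-3p and miR-199a-3p, had changes between -0.09 and 0.50. miR-199a-3p held 111421 and 164738 in normoxia against 124148 and 297023 in hypoxia, so that its change of 0.50 (SE 0.47) came from 1 hypoxia library. For this list 1 member was higher and 1 lower without overlap, where all features tested gave 14.4% and 11.4%.

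The let-7 list, tumour suppressor microRNAs that mark differentiated cells, held 21 members. 17 were lower in hypoxia and 7 of these were lower without overlap (33.3%, against 11.4% of all features tested). The median was -0.15, against 0.02 over all features tested, and 0 had an unadjusted p under 0.05. Its abundant members overlapped between the conditions. let-7f-5p held 145333 and 158036 against 173501 and 154071 (0.11, SE 0.31), and let-7a-5p 39856 and 54992 against 33948 and 49506 (-0.19, SE 0.33). The let-7 median was -0.17 after TMM scaling and -0.22 with libraries scaled to their microRNA totals. In the KO cells the let-7 median was 0.24, and that of all 553 microRNA members was 0.24 too, so the KO value is not particular to let-7.

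The miR-17/92 list, microRNAs of proliferation driven by MYC and E2F, held 20 members, of which 15 were lower and 4 of them lower without overlap (20%, against 11.4% of all features tested, median -0.14). miR-19b-3p held 252383 and 228352 in normoxia against 200822 and 175017 in hypoxia, with no overlap (log2 change -0.36, SE 0.28, unadjusted p = 0.227). miR-20a-5p held 37619 and 32703 against 46284 and 27488, which overlap. The median turned to 0.10 without WT normoxia number 1. miR-221-3p, which targets the cell cycle inhibitor p27, held 100322 and 51865 in normoxia against 101754 and 134450 in hypoxia (0.70, SE 0.44), with normoxia number 1 just below hypoxia number 1.

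Lists linked to fibroblast state also stayed near the median of all features. The fibroblast activation list (microRNAs of collagen and matrix control) had 12 higher and 12 lower members, and the fibroblast and mesenchymal markers 11 and 11, with medians of -0.01 and 0.00. miR-29a-3p, a repressor of collagen genes, held 114033 and 138741 against 114241 and 150179 (0.06, SE 0.30). miR-31-5p held 235521 and 215628 against 197506 and 177297 (-0.27, SE 0.25), lower without overlap. For miR-146b-5p, a microRNA induced by NF-kappaB, the libraries numbered 1 held 7718 and 12858 and those numbered 2 held 43476 and 52077, so its difference between numbers exceeded that between oxygen levels. The medians were 0.01 for the miR-15/16 list (10 members), 0.19 for miR-322 with miR-503 (11), 0.05 for miR-30 (10), -0.09 for miR-29 (7), -0.04 for miR-23/27/24 (11), 0.20 for miR-199 with miR-214 (6), -0.09 for miR-143 with miR-145 (4), 0.04 for miR-221 with miR-222 (4), -0.06 for the inflammatory (4) and -0.20 for the Hox-embedded list (4). None of their members had an unadjusted p under 0.05. These medians depended on single libraries. On leaving out 1 WT library at a time the miR-322 with miR-503 median ran from -0.45 to 0.87 and that of miR-199 with miR-214 from -0.33 to 0.75. Of all 21 microRNA lists 19 had a median that changed sign without 1 of the libraries, and the let-7 and haematopoietic medians did not. The marker lists of other cell types had medians of -0.32 (epithelial, 5 members), 0.28 (haematopoietic, 5), -0.04 (endothelial, 2), 0.07 (muscle, 3) and 0.01 (neural and melanocyte, 5).

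**Figure D2:**
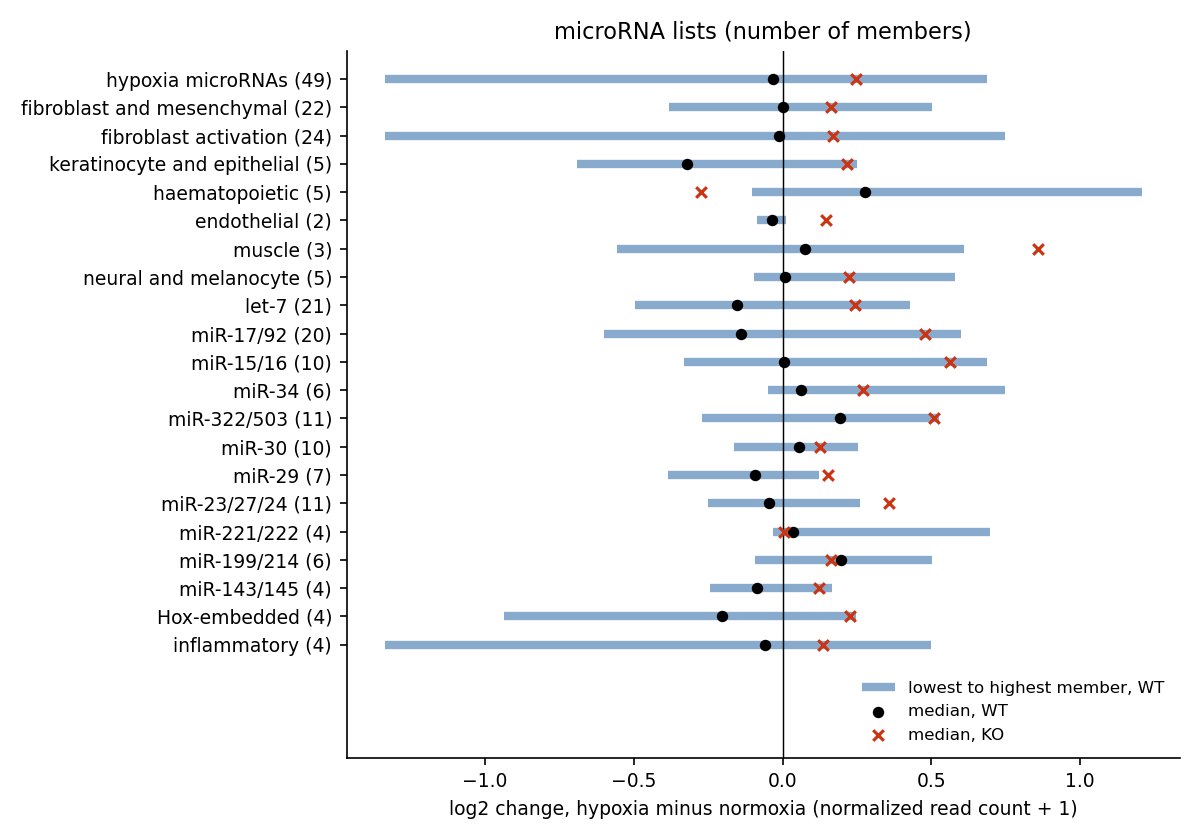
Median log2 change of each microRNA list in WT (points) and KO (crosses), hypoxia minus normoxia, with bars from the lowest to the highest WT member and the number of members in brackets. The WT medians lie between -0.32 (keratinocyte and epithelial) and 0.28 (haematopoietic), and the 49 hypoxia microRNAs without miR-210 centre on -0.03.

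Transfer RNAs decode the genetic code, and many genes encode each of them, so their copies share reads and were also summed by anticodon. Asparagine transfer RNAs (anticodon GTT) were higher in hypoxia. Their 14 listed copies summed to 6939 and 9493 in the normoxia libraries and to 17161 and 30356 in hypoxia. The lower hypoxia sum lay 1.81-fold above the higher normoxia sum. The log2 change was 1.49 (SE 0.36, unadjusted p = 0.00293, adjusted p = 0.143 by limma over 49 anticodon groups). All 13 copies that were members were higher without overlap, with changes from 1.11 to 1.80, and the 14th was nearly absent. The 9 copies with one sequence had mean values from 505.8 to 4201, so identical genes are not given equal counts in the table. The highest, chr2.tRNA1947-AsnGTT, held 1882 and 2554 against 4098 and 8269 (1.41, SE 0.42). chr3.tRNA757-AsnGTT, the copy 3 edits away, held 277 and 335 against 619 and 805 (1.21, SE 0.28). In the KO cells the sum was 8074 and 13209 in normoxia and 11125 and 14059 in hypoxia, a change of 0.28 (SE 0.36) with overlap. The KO change minus the WT change was -1.22 (unadjusted p = 0.0437, adjusted p = 0.804 by limma).

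Asparagine transfer RNA belongs to the class whose first anticodon base is exchanged for queuosine in animal cells, with those for aspartate, histidine and tyrosine. The 36 members for these other 3 amino acids (anticodons GTC, GTG and GTA) were picked after values had been seen. Of these 33 were higher, 24 of them without overlap (66.7%, against 14.4% of all features tested), with a median log2 change of 0.32 in WT and 0.22 in KO. They are gene copies of only 3 transfer RNAs and share reads, so the 36 are not separate measurements. Their share therefore cannot be read like the share over all features. Summed by anticodon, aspartate held 46964 and 49892 against 54238 and 77083 (0.42, SE 0.31), histidine 1249 and 1319 against 1754 and 1382 (0.28, SE 0.27), and tyrosine 30374 and 34154 against 27999 and 38030 (0.02, SE 0.30). The aspartate and histidine sums did not overlap between the conditions, and the tyrosine sum did.

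Phenylalanine transfer RNAs (anticodon GAA) were lower in hypoxia. Their 7 copies summed to 8706 and 10170 in the normoxia libraries and to 4208 and 3144 in the hypoxia libraries. The lower normoxia sum lay 2.07-fold above the higher hypoxia sum. The log2 change was -1.37 (SE 0.71, unadjusted p = 0.0853), and all 7 copies were lower without overlap, from -1.73 to -0.99. The single gene annotated as SerGGA, which resembles the phenylalanine genes (above), went the same way, at 488 and 458 against 204 and 135 (-1.50, SE 0.73). In the KO cells the phenylalanine sum was 3563 and 10742 in normoxia and 14416 and 3020 in hypoxia, so libraries of 1 condition differed as much as the WT conditions did. SerGGA did likewise, at 155 and 595 against 691 and 164. With the 4 WT libraries alone, limma gave adjusted p-values of 3.21e-04 for asparagine, 2.64e-04 for phenylalanine and 2.30e-04 for SerGGA. That fit leaves out the KO libraries, whose spread within a condition is given above. Its SE was 0.24 for SerGGA and 0.23 for phenylalanine, against 0.73 and 0.71 with all 8 libraries. Fitted as a single feature, SerGGA had an adjusted p of 0.282 or more by limma in every setting tried.

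A pair of further members among the lowest shared this order of libraries. The hairpin feature of Mir3473c, within the gene Traf5, held 101 and 121 in WT normoxia and 22 and 12 in WT hypoxia (-2.69, SE 1.16, unadjusted p = 0.0436). The KO values were 11 and 147 in normoxia against 122 and 13 in hypoxia. The piRNA entry FR005666 held 12 and 13 in WT normoxia and 0 and 0 in WT hypoxia, at least 8.33-fold lower against a floor of 3 counts over the group, and 0 and 13 in KO normoxia against 11 and 0 in KO hypoxia. Only its WT normoxia values made it a member, so its direction in WT follows from the threshold. For all of these features WT normoxia numbers 1 and 2, KO normoxia number 2 and KO hypoxia number 1 were high and the other 4 libraries low. What these libraries share was not tested. Other members on the lower side were arranged differently in the KO cells. The microRNA hairpin feature ENSMUST00000175226 held 11 and 17 in WT normoxia against 4 and 8 in WT hypoxia (-1.13, SE 0.57), and 7 or 8 in each KO library. miR-323-3p held 23 and 22 against 6 and 17 in WT, and 24 and 25 against 30 and 43 in KO. The ribosomal RNA feature n-R5s194, at 281624 and 538192 in those 2 KO libraries, was at 179825 and 275372 in the other 2 and at 175871 to 228101 in the WT libraries.

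**Figure D3:**
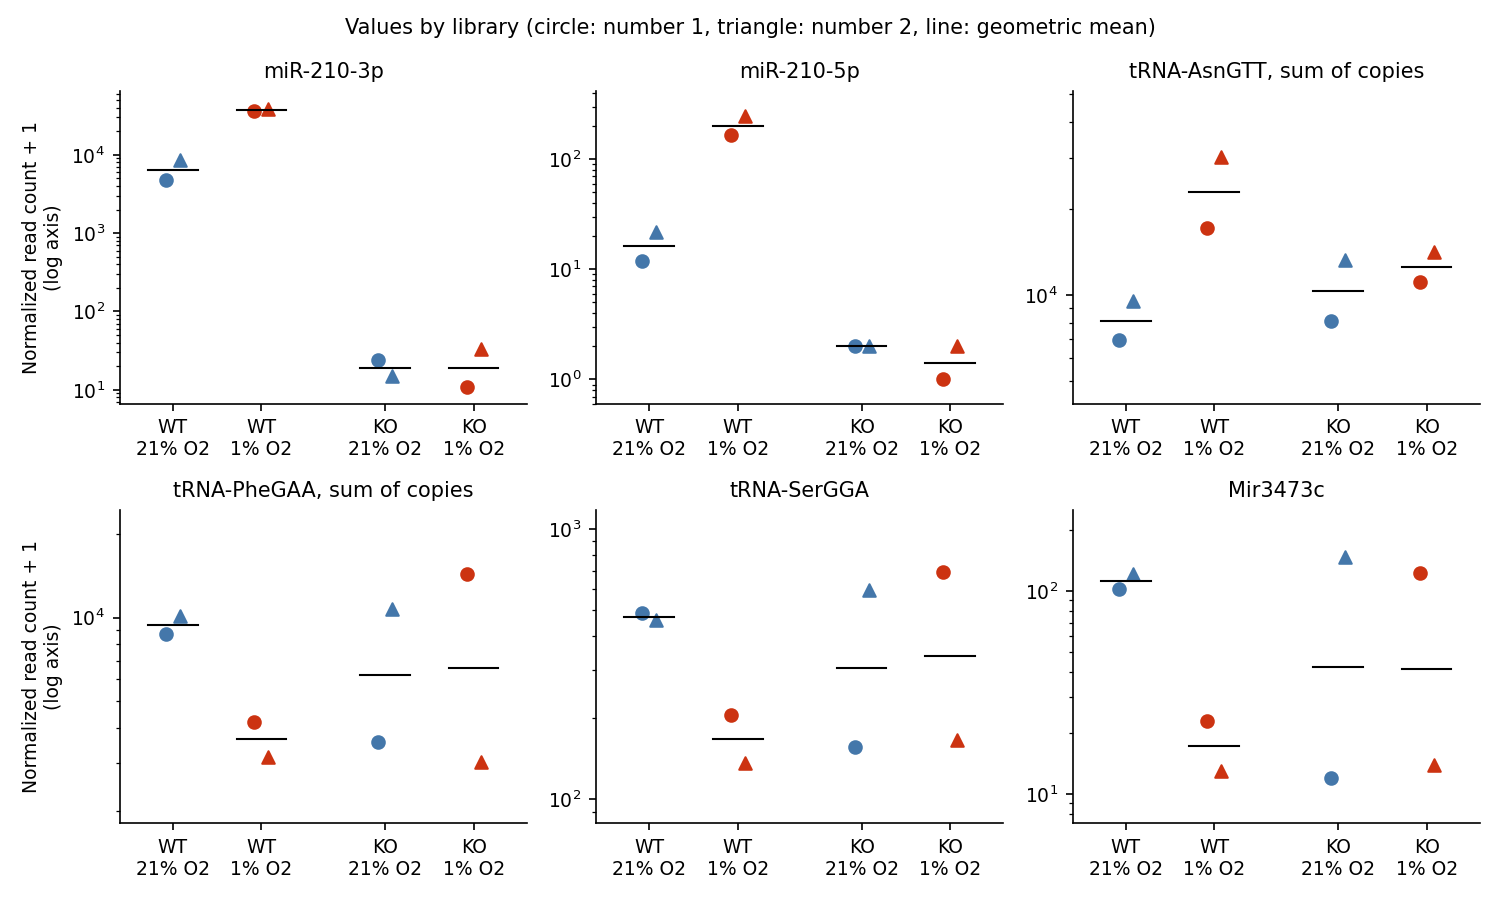
Normalized read count plus 1 (log axes) of both miR-210 arms, the summed asparagine (AsnGTT) and phenylalanine (PheGAA) transfer RNAs, the SerGGA gene and the Mir3473c hairpin in each of the 8 libraries, with the geometric mean of each pair. miR-210 and AsnGTT separate the WT conditions upward. PheGAA, SerGGA and Mir3473c separate them downward, while 1 KO library of each condition is high and 1 low.

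Among all 49 anticodon groups 0 passed an adjusted p of 0.05 (0%) and 1, AsnGTT, had an unadjusted p under 0.05. Both hypoxia sums lay above both normoxia sums for 9 groups (18.4%), and below for 10 (20.4%). Besides AsnGTT the higher groups were AspGTC, HisGTG, LysCTT, LysTTT, AlaAGC, AlaTGC, GlnCTG and IleGAT. LysCTT held 43172 and 46297 against 56582 and 55120 (0.32, SE 0.22), and IleGAT 83 and 79 against 144 and 89 (0.48, SE 0.28). The lower groups besides PheGAA and SerGGA were HisATG, SerCGA, SerAGA, ValAAC, LeuTAG, ProAGG, ProCGG and ArgTCT. HisATG, a single gene, held 509 and 512 against 281 and 362 (-0.68, SE 0.38). ValAAC held 93855 and 142232 against 87228 and 86211 (-0.41, SE 0.32). Its most abundant gene, chr13.tRNA974-ValAAC, was at 57932 and 88279 against 52188 and 51703. Of the 410 genomic transfer RNA members 238 were higher and 172 lower (median 0.09), with 110 higher without overlap (26.8%, against 14.4% of all features tested, or 97 members without the asparagine copies). The 53 lower without overlap (12.9%) lay close to the 11.4% of all features. Copies of a transfer RNA share reads, so neither count is one of separate measurements. The median turned to -0.05 without WT hypoxia number 1.

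**Figure D4:**
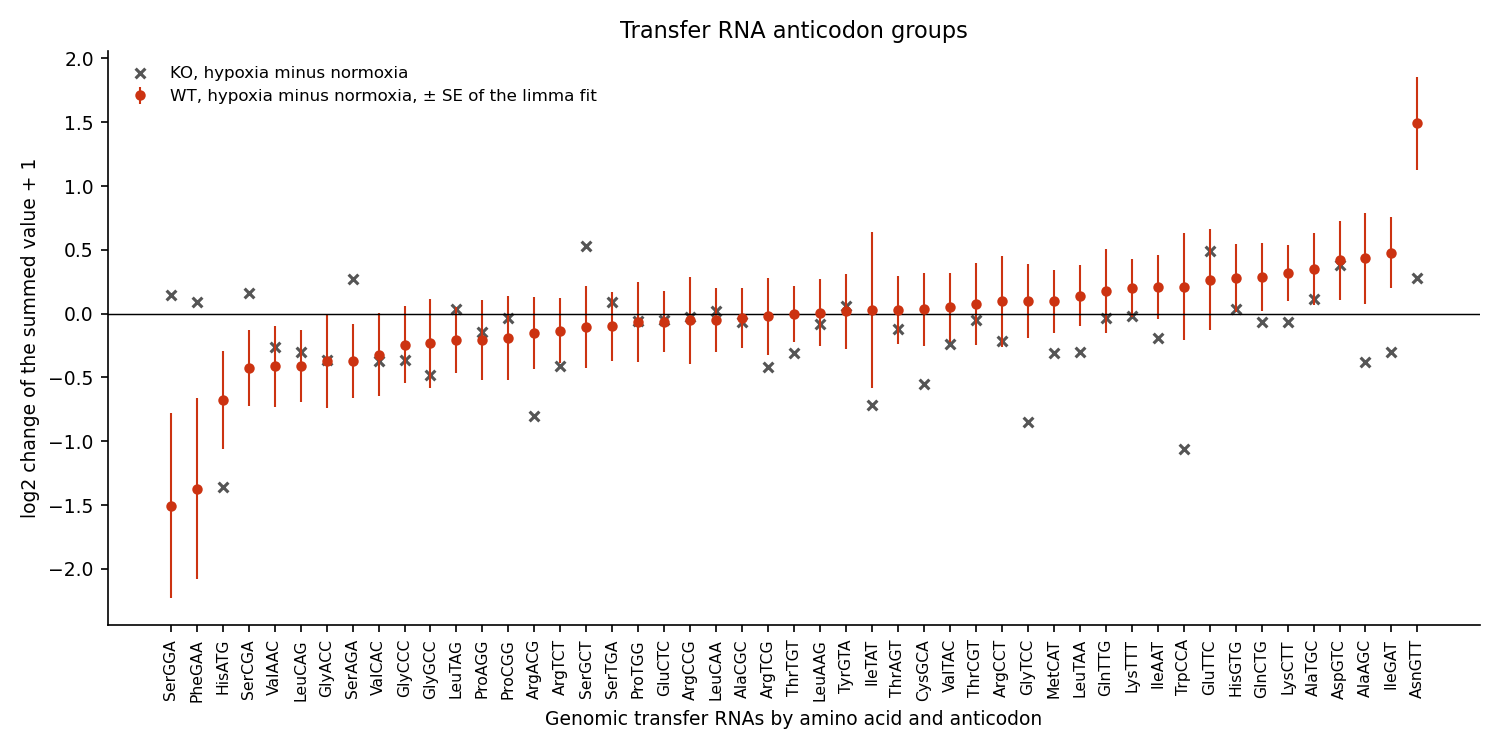
log2 change of the summed genomic transfer RNAs of each of 49 anticodon groups, hypoxia minus normoxia, in WT (points, with error bars of 1 SE from limma) and in KO (crosses). AsnGTT stands at 1.49 in WT and 0.28 in KO, and SerGGA and PheGAA at -1.50 and -1.37 in WT and 0.15 and 0.09 in KO.

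Mitochondrial transfer RNAs, which serve protein synthesis inside mitochondria, were mostly lower in hypoxia. Of 22 members 18 were lower, 8 of them without overlap (36.4%, against 11.4% of all features tested), and 0 were higher without overlap. Their median log2 change was -0.25, -0.26 after TMM scaling and -0.31 with libraries scaled to their microRNA totals, and 0 had an unadjusted p under 0.05. mt-Tf (phenylalanine) held 9968 and 12426 in normoxia against 7883 and 8014 in hypoxia (-0.49, SE 0.25, unadjusted p = 0.0819). mt-Te (glutamate) held 1131 and 1006 against 781 and 697 (-0.53, SE 0.30). mt-Td (aspartate) held 38 and 42 against 24 and 26 (-0.66, SE 0.40). The most abundant one, mt-Ts2 (serine), held 25928 and 45156 against 32998 and 26277, which overlap. mt-Tl1 and mt-Ty were higher on average, at 5807 and 9014 against 6358 and 11352 for mt-Tl1 (0.23, SE 0.37), but with overlap. As a class they took 0.992% and 1.26% of the normoxia libraries and 0.988% and 0.946% of the hypoxia libraries. This did not overlap, with p = 0.333 by an exact two-sided permutation test, the smallest that 2 libraries against 2 allow. The median was -0.02 without WT normoxia number 2. In the KO cells 18 of 22 were lower as well, 16 of them in both genotypes, with a median of -0.32 and mt-Te at -1.35.

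**Figure D5:**
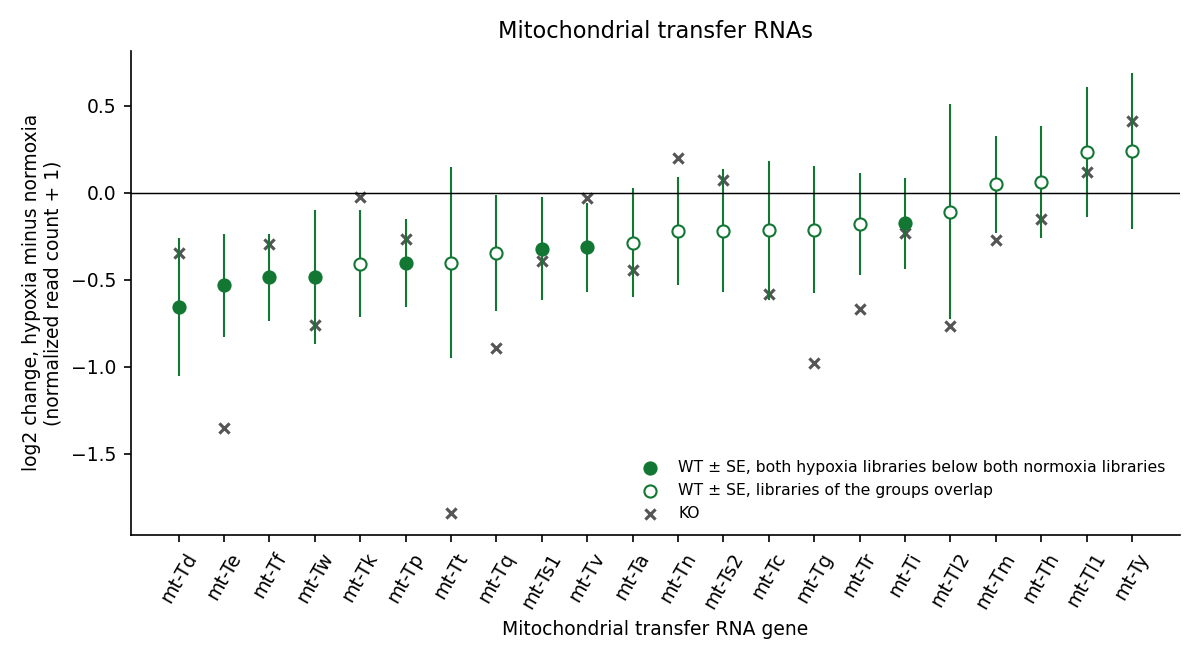
log2 change of the 22 mitochondrial transfer RNAs in WT (circles, with error bars of 1 SE from limma) and KO (crosses), hypoxia minus normoxia. 18 WT values are below 0, from -0.66 (mt-Td), and the 8 filled circles mark genes whose hypoxia libraries both lay below both normoxia libraries.

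Small nucleolar RNA members were split evenly, with 183 of 369 higher and 186 lower (median 0.00). Without overlap 43 were higher (11.7%, against 14.4% of all features tested) and 46 lower (12.5%, against 11.4%). Only members with Snord or Snora gene symbols were sorted by box, so most of the 369 are in neither group. The C/D box members so named, guides of ribose methylation, had 56 of 91 higher (median 0.05). The H/ACA box members so named, guides of pseudouridylation, had 30 of 47 lower (median -0.07), 10 of them without overlap (21.3%, against 11.4% of all features tested). Most small nucleolar RNAs are cut from introns of host genes. The 10 members within Eif4a2, a translation initiation factor gene, were all lower on average, 4 of them without overlap (40%, against 11.4%, median -0.33), and the median was -0.02 without WT hypoxia number 2. The hosts with 10 members were picked after values had been seen. These host groups hold piRNA entries too, such as FR283123 (Snord2) in Eif4a2, so not all their members are of the nucleolar class. Nor are all of them separate RNAs, since in Snhg1 the piRNA entry FR298990 and the nucleolar entry FR219096 matched the same gene. Snora81, one of the Eif4a2 guides, held 695 and 989 against 568 and 606 in its entry FR346455. Members within Snhg1 and Gas5, noncoding hosts, had medians of 0.12 and -0.09. The smallest p of the class was that of Snord100 (FR185852), at 8621 and 6978 against 6219 and 4739 (-0.51, SE 0.26, unadjusted p = 0.0815). FR228461, within Rpl30, held 209 and 259 against 125 and 164 (-0.70, SE 0.39). Snord22 (FR144509), the most abundant, held 43856 and 34377 against 49056 and 44016 (0.26, SE 0.26).

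Small nuclear RNA members were higher without overlap in 9 of 38 (23.7%, against 14.4% of all features tested) and lower in 2 (5.26%, against 11.4%), with a median of 0.00. Gm24924 held 9 and 2 in normoxia against 12 and 26 in hypoxia (1.77, SE 0.73, unadjusted p = 0.0368 by limma), and Gm24145 held 56 and 53 against 73 and 187 (1.09, SE 0.56). Only its hypoxia values made Gm24924 a member. Of the 3 most abundant, Gm26244 held 30501 and 23592 against 35994 and 32047 (0.34, SE 0.34), higher without overlap. FR171679 held 15217 and 15768 against 15862 and 14088, and FR388105 held 13319 and 14620 against 13324 and 10813, both with overlap. Ribosomal RNA members were higher in 11 of 13 (median 0.26), 2 without overlap (15.4%, against 14.4% of all features tested). Several of them are copies of the 5S gene and may share reads, so the 13 may not be separate measurements. The largest, n-R5s194, a 5S gene, held 189303 and 178962 against 175871 and 228101 (0.12, SE 0.37). n-R5s33 held 8707 and 12011 against 7814 and 7409 (-0.43, SE 0.33), lower without overlap. n-R5s77 held 312 and 258 against 589 and 526 (0.97, SE 0.52). Of 56 piRNA entries 32 were higher (median 0.08), and the 3 most abundant matched nucleolar RNA genes by sequence, among them Snord2 (FR283123) at 6334 and 7336 against 6870 and 6328. FR380039 held 22 and 19 against 50 and 33 (0.96, SE 0.52), and FR168761 held 32 and 18 against 14 and 14 (-0.74, SE 0.50). Of the 11 members of the class misc_RNA 2 were higher without overlap (18.2%, against 14.4%). Gm22227 held 6 and 7 against 10 and 21, and Rprl3 39 and 32 against 37 and 35. The 3 other transfer RNA entries matched mitochondrial genes, and 1 of them was lower without overlap (33.3%, against 11.4%).

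Whether the change differed between WT and KO cells was tested with an interaction term. Of 1540 features 0 passed an adjusted p of 0.05 (0%) by limma, and 37 had an unadjusted p under 0.05. The smallest p was that of miR-210-5p (KO change minus WT change -4.13, SE 0.86, adjusted p = 0.917), which in KO cells was at 0 or 1. miR-467a-5p held 6448 and 6721 in WT normoxia against 6836 and 3705 in WT hypoxia, and 2468 and 2332 against 5554 and 6021 in KO (1.66, SE 0.44, unadjusted p = 0.00408). miR-467b-5p had the same pattern at a lower level, from 371 to 684 in WT (1.65, SE 0.46).

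The threshold of 10 in 2 libraries decided which rare features were described. Just inside it lay Gm22227 (6, 7, 10 and 21 in normoxia numbers 1 and 2 and hypoxia numbers 1 and 2) and the nucleolar feature Gm24900 (10, 7, 3 and 14). Just outside lay the Mir3068 feature (1, 9, 5 and 18) and Gm25848 (9, 7, 6 and 10). In all, 106 members reached 10 in 2 or 3 of the 4 libraries, 7 of them in both hypoxia libraries only and 7 in both normoxia libraries only. The groups of these last members cannot overlap, so their direction is not separate support. Gm24924, Gm22227 and FR115485 are among those of hypoxia, and FR005666 and ENSMUST00000175226 among those of normoxia.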

How the data were processed

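Small RNA was sequenced from 8 libraries, 2 for each genotype and oxygen level. Per the labels' protocols, RNA was extracted with miRNeasy and sequencing libraries for SOLiD were made with NEBNext small RNA reagents. The deposited values were handled as a score, since they are the authors' normalized read counts rounded to whole numbers. The sources used here do not name the normalization, the aligner, the genome build or how reads with more than one match were counted.

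On the scale of log2(value + 1), limma 3.58.1 (R 4.3.3) was run with a trend of the variance on the level over the 1540 features at 10 or more in at least 2 of 8 libraries, with 4 group means, 4 residual and 5.64 prior degrees of freedom, and Benjamini-Hochberg adjustment over all 1540 (threshold 0.05). Fold changes are on that scale, which understates the change of low features. Summed copies of transfer RNAs by anticodon (sum of at least 50 in 2 libraries), 3p over 5p arm ratios of hairpins and summed seed families were fitted with the same group means. The trend of the variance was used for the seed families but not for the anticodon sums or the arm ratios. The fits were tested on simulated data. Class shares were compared by an exact permutation test. Seeds came from RefSeq for 572 microRNA features and from the table for 160. The table's microRNA sequence began 1 base before the RefSeq one in 571 of 572. Host genes and symbols came from GENCODE vM21 by transcript ID or sequence.

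Features to be named were drawn by a rule: both miR-210 arms, the 12 higher and 12 lower members with the smallest p and no overlap, in each class of at least 10 members the 3 most abundant and the 2 higher and 2 lower with the smallest p, up to 4 members of each list, the 4 smallest p of each further fit, and those beside the threshold. Features it drew that are not given singly are covered by counts, ranges and medians. The remaining features named beside a list, a sequence or a host were chosen after their values were seen. The members, lists and tests were chosen with earlier results of these data known.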

Additional observations from a re-analysis of the deposited data

Results flagged for a closer look

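For 6 named features both hypoxia libraries lay on one side of both normoxia libraries in WT cells and on the opposite side in KO cells. None of the differences passed an adjusted p of 0.05 in the interaction test (limma). Features were named in part for a small p or no overlap between the WT conditions, so the WT side of this criterion was partly selected. The share of all features tested that meet the criterion is not given here. Whether 6 is more than all features would give was therefore not tested. The differences below are the KO change minus the WT change on the log2 scale. Values are given for normoxia numbers 1 and 2, then hypoxia numbers 1 and 2. miR-323-3p held 23 and 22, then 6 and 17 in WT, and 24 and 25, then 30 and 43 in KO, a difference of 1.60 (unadjusted p = 0.0543). The small nuclear feature FR231715 (Gm23907) held 185 and 130, then 126 and 84 in WT, and 67 and 70, then 255 and 181 in KO, a difference of 2.22 (unadjusted p = 0.00119). The piRNA entry FR115485 held 8 and 8, then 16 and 14 in WT, and 20 and 17, then 12 and 16 in KO, a difference of -1.21 (unadjusted p = 0.0950). The nucleolar entry FR398129 held 7656 and 4886, then 9256 and 8714 in WT, and 7816 and 7704, then 5580 and 7450 in KO, a difference of -0.82 (unadjusted p = 0.0784). The nucleolar entry FR345895 held 22 and 20, then 32 and 39 in WT, and 25 and 32, then 21 and 15 in KO, a difference of -1.37 (unadjusted p = 0.0405). miR-31-5p held 235521 and 215628, then 197506 and 177297 in WT, and 215129 and 200153, then 224792 and 247466 in KO, a difference of 0.45 (unadjusted p = 0.231).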

How the results depend on the processing

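Over the settings tried the count of features past an adjusted p of 0.05 was 0 to 8. It was 1 with a pseudocount of 8 and 1 over features with a mean of at least 50, miR-210-5p each time. That feature reached this mean only through its WT hypoxia values. The count was 8 when the replicate block was added (both miR-210 arms and 6 AsnGTT copies). Libraries with one number share only that number in the labels, and the cause of the gain was not tested. Deviations of same-numbered WT libraries correlated (r = 0.551), and members over 2-fold apart numbered 56 and 66 between libraries of one number but 114 and 183 between those of one condition. With the block the miR-210-3p change stayed at 2.55 (adjusted p = 0.0379) and that of miR-210-5p at 3.63 (0.0153). miR-210-5p was 3.15 with the pseudocount of 8 and 3.63 with the mean of 50. Anticodon groups called were 1 with the block (AsnGTT, adjusted p = 0.0114) and 3 with the 4 WT libraries alone, and seed families 1 with the pseudocount of 8, 1 with the block and 1 with WT alone (miR-210-5p). Leaving out each WT library in turn, with the lone library assumed to vary like the other groups, gave 0 calls at every level, 2.13 to 2.98 for miR-210-3p and 3.19 to 4.07 for miR-210-5p.

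Of 833 comparisons of a setting with the reported value, over 62 named results, 805 kept their direction and their side of the threshold, 16 passed it and 12 reversed, in 8 results, each time on leaving out 1 library. Their ranges were -0.19 to 0.65 for mt-Tl1, -0.33 to 0.81 for mt-Ty, -0.047 to 1.15 for the misc_RNA Gm24936, -0.74 to 0.26 for the misc_RNA Gm25557, -0.61 to 0.19 for the misc_RNA Gm22343, -0.024 to 2.44 for the ribosomal RNA Gm23289, -0.78 to 0.33 for the ribosomal RNA Gm23473 and -1.12 to 0.074 for the small nuclear RNA FR330704. The cause was not tested. Of 198 medians of classes, lists and hosts 187 moved by less than the spread of the libraries and 11 by more, in the 7 medians of the piRNA class, the haematopoietic, neural and melanocyte, Hox-embedded and inflammatory lists and the Eif4a2 and Gas5 hosts. The medians of the Eif4a2, Gas5 and Snhg1 groups were recomputed as a choice made after seeing the data. Depth limits features near 10 counts, and with 2 libraries a group small changes could not be told from the spread.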
